A study of Mus musculus with 12 samples.

Results

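The genes described here are those of the natriuretic peptide system and its muscle-derived ligand osteocrin: the receptors Npr1, Npr2 and Npr3, the peptides Nppa, Nppb and Nppc, and Ostn. They are 7 of the 27597 genes or names on a 1-colour Agilent mouse expression array and have 13 of its 41174 probes. Members were found by gene name, with older names resolved through the probes' transcript accessions, and the group of genes was chosen with its levels over the 4 groups already known. For that reason their levels and differences are a description, and no p-value is given for any of them. Total RNA came from the whole gastrocnemius, a calf muscle, of adult male CD1 mice. The 4 groups of 3 arrays each were WT control muscle, WT muscle denervated for 14 days, Smad4 KO control muscle and Smad4 KO muscle denervated for 14 days. Smad4 is the shared signal carrier of TGF-beta and BMP receptors. The labels name the genotype only as WT or Smad4 KO, give neither the allele nor the cells that lost the gene, and state that each of the 3 experiments per condition used different animals. Smad4 itself had a mean level of 3.71 ± 0.21 (SD, n = 3) in control and 3.26 ± 0.17 in denervated muscle of WT mice, and 2.26 ± 0.13 against 1.83 ± 0.15 in KO mice, in log2 signal relative to the array's 75th percentile.

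Natriuretic peptides act on cells through cyclic GMP. Npr1, the receptor for the peptides of Nppa and Nppb, and Npr2, the receptor for the peptide of Nppc, are guanylyl cyclases, and the cyclic GMP they make activates protein kinase G. Npr3 has no cyclase domain. It takes up the peptides for degradation, which has given it the name clearance receptor, and it can couple to inhibitory G proteins. Osteocrin, also called musclin, is a peptide secreted by muscle fibres and by bone-forming cells that binds Npr3 and so spares the natriuretic peptides from clearance.

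The receptor genes with signal well above background on each of the 12 arrays were Npr3 and Npr2, and the 250 bases before their annotated start sites are shown because Smad4 belongs to a complex that binds DNA. Promoters of 6 of the 7 genes were in the RefSeq table for GRCm38.p6. Capitals mark matches to CANNTG, the E-box read by muscle bHLH factors. Sequences run 5′ to 3′ on the gene's strand, chr15:11907372-11907621 (minus) for Npr3 and chr4:43631685-43631934 (plus) for Npr2.
Npr3: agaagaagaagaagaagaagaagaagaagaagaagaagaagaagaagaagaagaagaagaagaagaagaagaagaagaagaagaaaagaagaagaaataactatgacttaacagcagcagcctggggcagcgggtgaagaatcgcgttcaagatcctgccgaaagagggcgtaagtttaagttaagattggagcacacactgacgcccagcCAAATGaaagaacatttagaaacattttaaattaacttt
Npr2: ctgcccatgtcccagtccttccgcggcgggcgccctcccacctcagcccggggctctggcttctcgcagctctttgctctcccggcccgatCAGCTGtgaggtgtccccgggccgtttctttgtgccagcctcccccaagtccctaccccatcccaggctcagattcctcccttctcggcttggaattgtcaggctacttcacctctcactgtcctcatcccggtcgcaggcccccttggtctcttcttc
The Npr3 stretch opens with a long AGA repeat and holds 1 E-box match, CAAATG, from base -39 to -34 counted from the start site. In Npr2 the match is CAGCTG, from -159 to -154. Each window was also searched on both strands for CAGAC, a short Smad-binding word, and GTCTAGAC, a palindrome of the core word; none of the words searched contains another. Neither was in the Npr3 or the Npr2 window. The GC-rich Smad word GGCGCC was in the Npr2 window, from -222 to -217, and not in that of Npr3. CAGAC was found once each in the windows of Nppa (-186 to -182) and Nppb (-55 to -51). Of 32851 promoters of this length, 42.2% held CAGAC, 0.167% held GTCTAGAC, 9.59% held GGCGCC and 66.2% held CANNTG.

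Levels below are log2 processed signals from which the array's 75th percentile was subtracted, so a step of 1 is a doubling. A probe was measured on an array where the scanner software marked it well above background. The lowest such signal lay between -4.80 and -3.93 on this scale, depending on the array. A probe's level cannot be set against another probe's. Of the 7 genes, 4 had a probe well above background on all 3 arrays of at least 1 group and entered the fit of 15226 genes with limma (Npr3, Npr2, Ostn and Nppb). Npr1, Nppa and Nppc did not. The 4 that entered could do so through the group in which they were high. Arrays of the same group correlated at r = 0.974 to 0.985, and between 49.95% and 56.38% of probes were well above background. Of 9 muscle fibre markers all entered the fit, 8 of them well above background on all 12 arrays. Of 6 Schwann cell markers 4 passed as lower after denervation in each genotype, of 6 tendon markers 2 in WT and 4 in KO as higher, of 6 macrophage markers 1 and 3 as higher, and of 8 fibroblast markers 1 and 0 as lower, with none past the threshold between genotypes (limma, adjusted p under 0.05). Beside these and later marker counts, 20.0% of all genes passed as lower and 19.2% as higher in WT, and 23.5% and 23.4% in KO. The part of the markers in the results was not tested. Whole muscle holds many cell types, so fewer cells of a type and less RNA per cell cannot be told apart here.

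Npr3, the clearance receptor, was higher after denervation in WT muscle and lower after denervation in KO muscle. Its brightest probe (A_51_P247184, chr15:11784907-11784966 of mm8, minus strand) was well above background on all 12 arrays. In WT control muscle it read -0.43, -0.58 and -0.60, and in WT denervated muscle 2.37, 2.53 and 1.39. In KO control muscle it read -0.57, -0.42 and -0.66, and in KO denervated muscle -1.93, -1.49 and -2.00. The 6 control arrays of both genotypes thus lay together, all WT denervated arrays lay above them and all KO denervated arrays below them. WT denervated replicate 3 was the lowest of its group, although it shared a slide with WT denervated replicate 2, the highest.

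**Figure D1:**
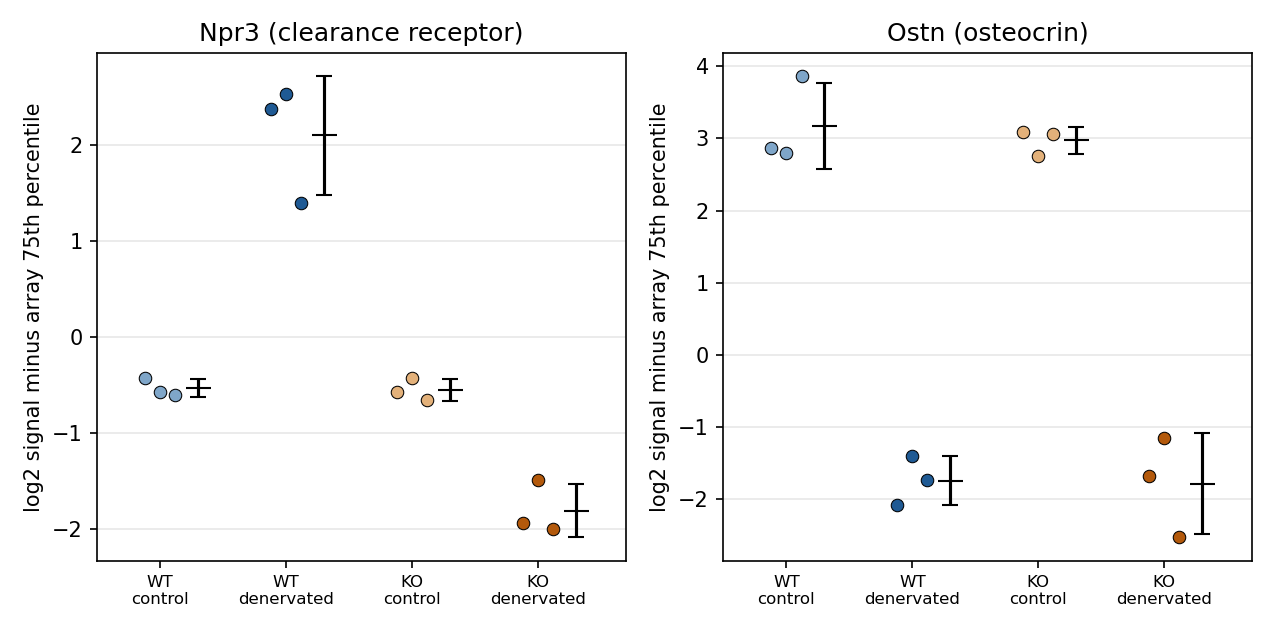
Level of Npr3 (left) and Ostn (right) on each of the 12 arrays, in log2 units from that array's 75th percentile, by group. Points are arrays in the order of replicates 1 to 3, and the bar beside them is the mean with its SD. Npr3 lies above the controls in WT denervated muscle (1.39 to 2.53) and below them in KO denervated muscle (-2.00 to -1.49), while Ostn lies below the controls in both.

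Group means of that Npr3 probe were -0.54 ± 0.09 (SD, n = 3) in control and 2.10 ± 0.62 in denervated muscle of WT mice, and -0.55 ± 0.12 against -1.81 ± 0.28 in KO mice. Denervation thus went with a log2 difference of 2.63 ± 0.26 (SE) in WT, or 6.21-fold higher, and of -1.26 ± 0.26 in KO, or 2.39-fold lower. The control muscles of the 2 genotypes differed by -0.02 ± 0.26, which is less than the spread between arrays. Denervated KO muscle was lower than denervated WT muscle by 3.91 ± 0.26 log2 units, or 15.0-fold. The response in KO minus that in WT was -3.89 ± 0.37. Among the 15226 genes, ordered from the most negative difference, Npr3 stood at rank 3 between the denervated muscles and at rank 4 for the difference in response, and it was the 270th highest after denervation in WT. The pattern of higher in WT and lower in KO, with no overlap of arrays in either, was shown by 33 genes, or 0.217%, and 10 genes, or 0.0657%, also passed the adjusted p threshold of 0.05 both ways. Npr3 was chosen with these values known, so its place among them supports nothing.

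The arrays lay on 4 slides scanned on 2 days, and the Npr3 differences after denervation and between denervated muscles kept their direction within each slide that held both groups. The difference was 2.80 on slide 1 for WT denervation, and -1.35 on slide 3 and -0.92 on slide 4 for KO denervation. Each of these sets 1 array against 1. The other 2 WT denervated arrays lay on slide 4, scanned on day 2. All WT control arrays lay on slides 1 to 3, scanned on day 1. WT denervation thus cannot be fully told apart from slide and scan day, for this or any other gene. Between denervated muscles, KO minus WT was -4.31 on slide 1 (1 array each) and -3.45 on slide 4 (1 KO and 2 WT arrays). Between control muscles the sign differed by slide, with 0.15 on slide 2 and -0.06 on slide 3. With slide as a block the 2 denervation differences were 2.59 and -1.28. An alternative, normexp background correction, starts from the raw signals and adds an offset of 50 to every spot. With it the 2 denervation differences were 2.19 and -0.59, so the KO difference was smaller by over 1.5 times on that scale.

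The other 2 Npr3 probes lie nearby on the same strand and were dimmer. Probe A_51_P356883 (chr15:11789913-11789972) read -4.28, -3.81 and -3.66 in WT control and -0.89, -0.72 and -1.85 in WT denervated muscle. In KO control muscle it read -4.49, -3.24 and -3.59, and in KO denervated muscle -5.90, -4.84 and -5.09. It was well above background on all WT denervated arrays, on 1 of 3 arrays in each control group and on no KO denervated array. Its difference after denervation in WT was 2.76 ± 0.40, a size that is uncertain since only 1 of 3 WT control arrays measured the probe. In KO it was at least 1.80-fold lower, and denervated KO muscle was at least 11.1-fold lower than denervated WT muscle. Such a bound sets the mean of the brighter group against the weakest signal that counted as well above background on the dimmer group's arrays.

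Probe A_52_P400798 (chr15:11789449-11789508) read -4.49, -4.97 and -3.68 in WT control and -1.02, -1.41 and -2.56 in WT denervated muscle. It was well above background on all WT denervated arrays and on 1 of 3 WT control arrays. Its WT difference of 2.72 ± 0.48 is therefore uncertain in size. In KO muscle it was not well above background on any array, control (-4.43, -5.63 and -4.58) or denervated (-5.85, -4.97 and -5.74), so this probe gives no fold for KO denervation. Denervated KO muscle was at least 7.78-fold lower than denervated WT muscle. On all 3 probes the WT denervated arrays thus read highest, with WT denervated replicate 3 the lowest of that group. The lower level in denervated KO than in control KO muscle was measured on both sides with the brightest probe alone. On A_51_P356883 it is a bound that rests on 1 of 3 KO control arrays well above background. A further probe, named for the clone AK040677 and described in the files as an Npr3 cDNA (chr15:11847703-11847762, minus strand), is no member by name and was singled out after its values were seen. It was dim, at -3.78 ± 0.82 (SD, n = 3) in control and -4.11 ± 0.45 in denervated WT muscle and at -3.97 ± 0.59 and -4.16 ± 0.14 in KO muscle, and did not separate the groups.

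**Figure D2:**
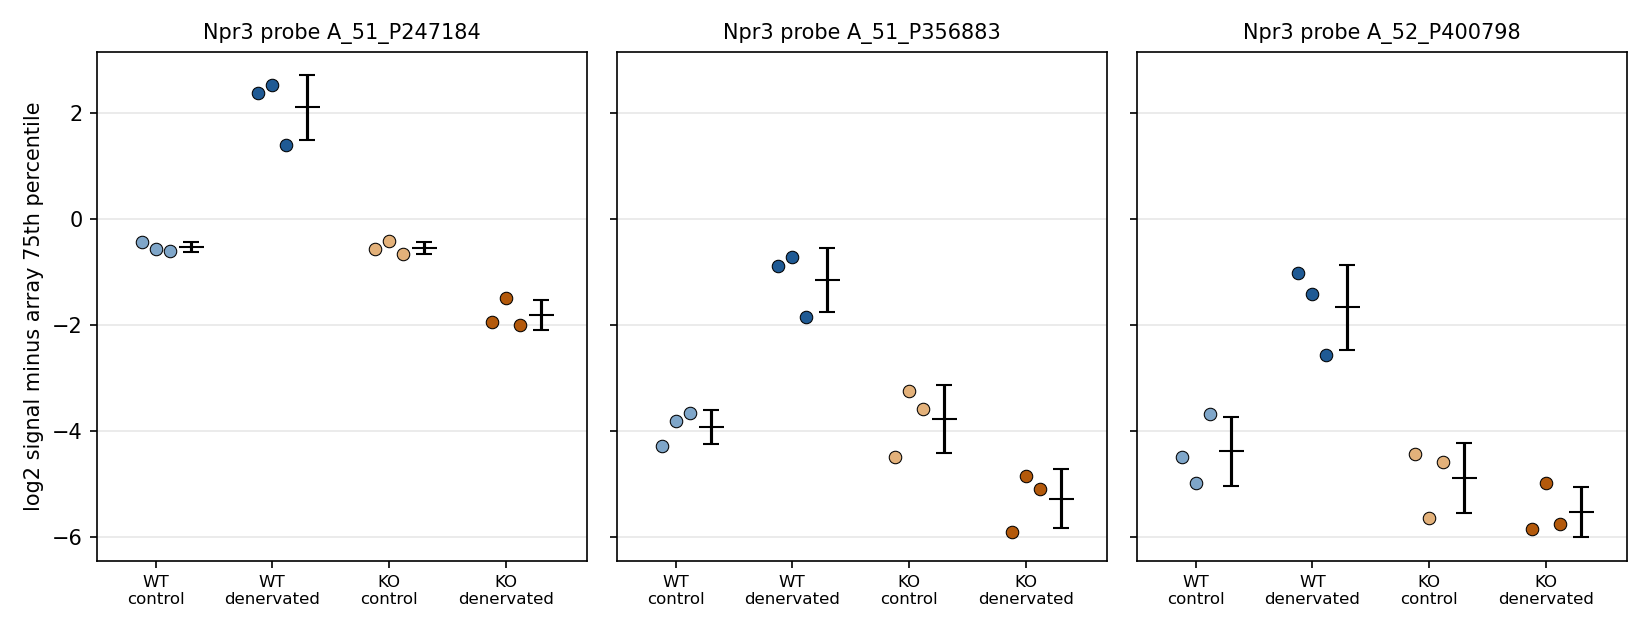
Level of the 3 Npr3 probes on each of the 12 arrays, in log2 units from that array's 75th percentile, by group, with the mean and SD beside the points. On each probe the 3 WT denervated arrays are the highest; the limit of signal well above background lay between -4.80 and -3.93.

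Endothelial, smooth muscle and fat cells also carry Npr3, and their markers were read beside it. Of 9 endothelial markers, 6 passed as lower after denervation in WT and 7 in KO, none as higher, with medians of -1.15 and -1.10 (limma, adjusted p under 0.05). Their summed signal, in units of the array's 75th percentile intensity, was 32.1 to 37.3 in control and 14.2 to 21.5 in denervated muscle of WT mice, and 34.7 to 36.1 against 17.1 to 22.2 in KO mice. Of 9 smooth muscle and pericyte markers, 4 passed as lower in each genotype, and their sum was 256 to 325, 170 to 205, 275 to 323 and 110 to 134 in the same order. Between the denervated muscles that sum was lower in KO with no overlap, while the median marker was 0.32 higher in KO and none of the 9 passed. None of 5 measured adipocyte markers passed in any comparison. None of the endothelial or smooth muscle markers passed between genotypes or for the difference in response. Npr3 was higher in WT and lower in KO after denervation, where the endothelial markers were lower in both. The part of these cell types in the Npr3 values was not tested.

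Npr2, the receptor for the Nppc peptide, was slightly lower after denervation in both genotypes. Its brightest probe (A_51_P518940, chr4:43672118-43672177 of mm8, plus strand) was well above background on all 12 arrays. It read 2.31, 2.69 and 2.40 in control and 2.151, 2.154 and 2.154 in denervated muscle of WT mice, and 2.72, 2.63 and 2.62 against 2.12, 1.74 and 2.13 in KO mice. Denervated and control arrays did not overlap in either genotype. The differences were -0.31 ± 0.15 (SE) in WT, or 1.24-fold lower, and -0.66 ± 0.15 in KO, or 1.58-fold lower. The response in KO minus that in WT was -0.34 ± 0.21. Between genotypes Npr2 differed by 0.19 ± 0.15 in control and by -0.15 ± 0.15 in denervated muscle.

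The second Npr2 probe (A_52_P489373, chr4:43669454-43669513) gave -0.47 ± 0.24 in WT, where the groups overlapped, and -0.81 ± 0.24 in KO. The third (A_52_P565549, mapped ends chr4:43653899-43654631) was dim, well above background on 11 arrays, and gave -0.14 ± 0.17 and -0.26 ± 0.17. All 3 Npr2 probes thus pointed lower in both genotypes, and in WT the groups separated only on the brightest. Within slides, the brightest probe's KO difference was -0.49 on slide 3 and -0.97 on slide 4, and its WT difference -0.16 on slide 1.

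Npr1, the receptor for the peptides of Nppa and Nppb, was near the limit of detection. Its only probe (A_51_P182693, mapped ends chr3:90541176-90541669 of mm8, minus strand) was well above background on 2 WT control arrays and on 1 array of each other group. It read -4.28, -3.18 and -5.80 in control and -5.07, -4.46 and -3.98 in denervated muscle of WT mice, and -4.03, -5.01 and -4.46 against -4.75, -6.54 and -4.46 in KO mice. All 4 groups overlapped, and no fold is given.

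Ostn, the gene of osteocrin, was 30.3-fold lower after denervation in WT muscle and 27.0-fold lower in KO. Its single probe (A_52_P374960, chr16 of mm8, plus strand, with mapped ends at 27239963 and 27262161, 22199 bases apart) was well above background on all 12 arrays. It read 2.87, 2.80 and 3.86 in WT control and -2.09, -1.41 and -1.74 in WT denervated muscle. In KO control muscle it read 3.09, 2.76 and 3.06, and in KO denervated muscle -1.67, -1.15 and -2.53. Every control array lay above every denervated array, whatever the genotype, and the genotypes overlapped within each condition.

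Group means of Ostn were 3.18 ± 0.60 (SD, n = 3) in control and -1.74 ± 0.34 in denervated muscle of WT mice, and 2.97 ± 0.18 against -1.78 ± 0.70 in KO mice. The difference after denervation was -4.92 ± 0.36 (SE) in WT, or 30.3-fold lower, and -4.75 ± 0.36 in KO, or 27.0-fold lower. Counted from the most negative of 15226 genes, these stood at rank 7 and rank 11. KO minus WT was -0.21 ± 0.36 in control and -0.04 ± 0.36 in denervated muscle, and the response in KO minus that in WT was 0.17 ± 0.51. Those 3 values are smaller than their standard errors. Within slides the denervation difference was -4.95 on slide 1 in WT and -5.59 and -4.24 on slides 3 and 4 in KO. With normexp background correction it was -3.57 in WT and -3.45 in KO.

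Markers listed for the 2 known sources of osteocrin were read beside it. Of 9 muscle fibre markers, 1 passed as lower after denervation in WT, with a median of -0.05, and 5 passed as lower in KO, with a median of -0.82. Their summed signal was 2239 to 2794 in control and 1823 to 2813 in denervated muscle of WT mice, and 2996 to 3066 against 1492 to 2139 in KO mice. The sums thus overlapped between conditions in WT and were lower without overlap in denervated KO muscle. Of 7 bone and cartilage markers 4 did not enter the fit, among them Sp7, well above background on 0 arrays, Ibsp on 1, Bglap on 3 and Acan on 5. The 3 that entered were Col2a1, Sox9 and Col10a1, genes of cartilage, so bone-forming cells were not measured by this list. Of these 3 genes, 1 passed as higher in WT and 2 in KO, with medians of 1.15 and 2.04 and none lower (limma, adjusted p under 0.05). The part of these cells in the Ostn values was not tested.

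The peptide genes themselves were at or near background. Nppb, the gene of the B-type peptide, was measured best by probe A_52_P559955 (chr4:146829755-146829814 of mm8, plus strand), well above background on 11 arrays. It read -4.46, -2.77 and -3.47 in control and -3.67, -3.58 and -3.12 in denervated muscle of WT mice, and -3.24, -2.76 and -3.21 against -3.88, -3.91 and -3.92 in KO mice. The groups overlapped in WT, with a difference of 0.11 ± 0.34 (SE), and did not in KO, with -0.83 ± 0.34. The KO value was 0.04 with normexp background correction, so its direction depends on how the background of this dim probe is treated. The other Nppb probe (A_51_P426195) was not well above background on any array.

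Nppa, the gene of the A-type peptide, has 2 probes printed in 10 spots each, and Nppc, the gene of the C-type peptide, has 1. None was well above background on any of the 12 arrays. The brighter Nppa probe (A_52_P580582, chr4:146845715-146845774) ranged from -5.84 to -4.27 over all arrays and the other (A_51_P361340) from -6.92 to -6.04. Nppc (A_51_P401894, chr1:88500831-88500890, minus strand) ranged from -6.74 to -4.13. No difference between groups could be measured for either gene at these signals. Heart muscle is the main source of Nppa and Nppb. Of 7 heart markers, 5 (Myl7, Nkx2-5, Tbx5, Hand2 and Tbx20) did not enter the fit, the first 4 of them not well above background on any array. The other 2, Myl4 and Myh6, had signal well above background throughout. Of these, 1 passed as higher after denervation in WT, and 1 as higher and 1 as lower in KO (limma, adjusted p under 0.05). Their summed signal was 15.4 to 30.7 in control and 31.5 to 52.5 in denervated muscle of WT mice, and 23.7 to 52.5 against 42.4 to 56.6 in KO mice. That sum is of Myl4 and Myh6 alone, with most of the list unmeasured, so it is not read as a measure of heart tissue. The part of heart markers in the Nppb values was not tested.

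**Figure D3:**
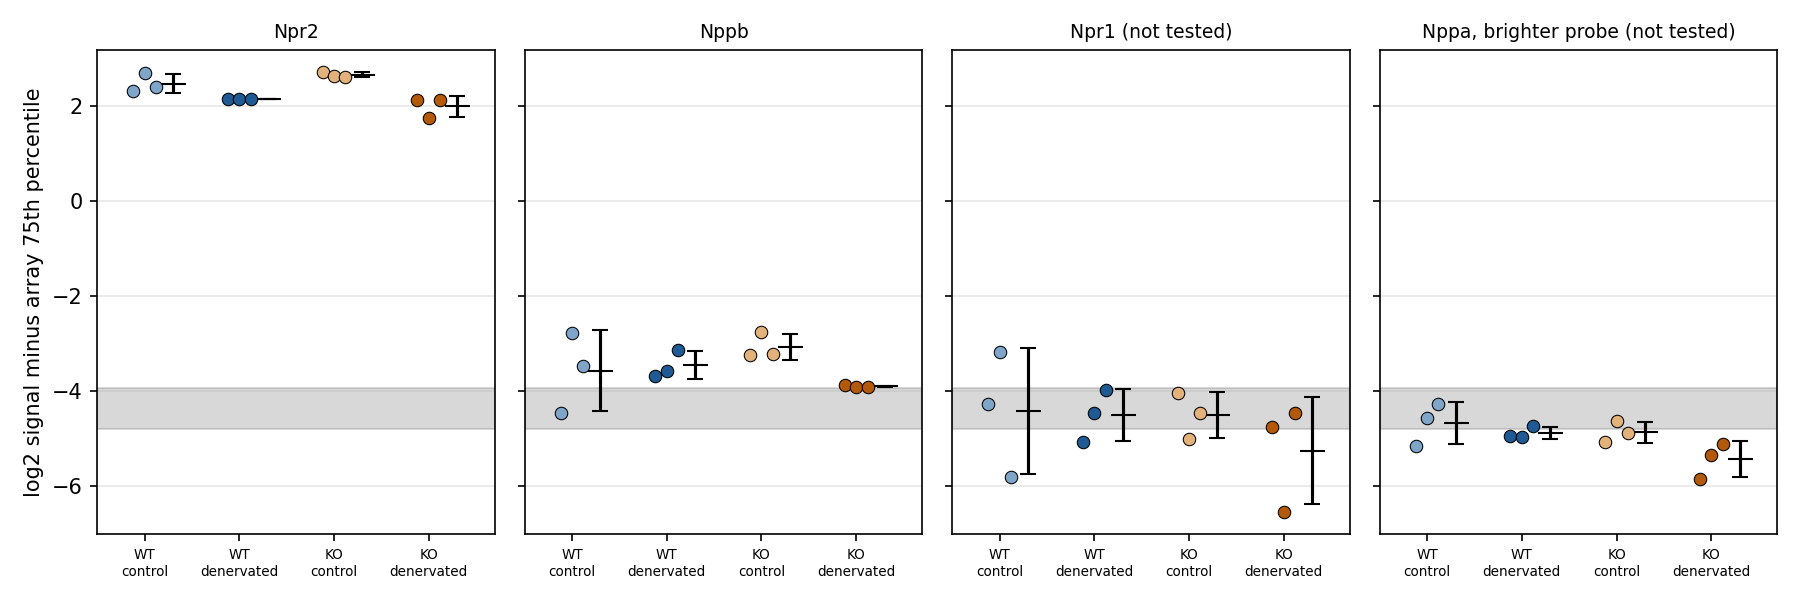
Levels of Npr2, Nppb, Npr1 and the brighter Nppa probe on each of the 12 arrays, in log2 units from that array's 75th percentile, by group, with the mean and SD beside the points. The grey band spans, over arrays, the lowest signal counted as well above background (-4.80 to -3.93). Npr2 lies between 1.74 and 2.72, and the other 3 lie in or near the band.

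Read over the group of genes, 2 of the 4 that entered the fit were past limma's adjusted p threshold of 0.05 after denervation in WT, beside 39.2% of all genes tested. In KO 3 were, beside 46.9%. With normexp correction Npr3 was not among them, and Nppb joined them with the replicate block, quantile normalization, array median scaling, the deposited processed values or without WT control replicate 1 or 2. Between control muscles 0 were, beside 0.00657%, which is 1 gene, with 611 genes at an unadjusted p under 0.05. Between denervated muscles 1 was, beside 2.39%, and for the difference in response 1, Npr3, beside 0.197%. Npr3 did not pass for the difference in response with slide as a block or with normexp correction. Arrays did not overlap for 3 of the 4 in WT (52.9% of all genes), 4 in KO (56.5%), 0 between controls (8.64%) and 3 between denervated muscles (21.8%). The members were chosen on these same levels, so nothing is read from the counts.

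The cyclic GMP pathway around the receptors was lower more often than higher after denervation. Of 39 listed genes, members aside, 37 were on the array and 29 entered the fit. The list was chosen with earlier results of these data known, so its counts and p-values are a description. In WT muscle 10 fell and 5 rose (limma, adjusted p under 0.05), beside 20.0% of all genes that fell and 19.2% that rose. In KO muscle 11 fell and 3 rose, beside 23.5% and 23.4%. The same shares of all genes stand beside the counts by role given below, each from a few genes. The median difference was -0.55 in WT and -0.47 in KO, against -0.003 over all genes in both. With slide as a block the medians were -0.53 and -0.31, and within slides -0.38 in WT (slide 1) and -0.47 and -0.22 in KO (slides 3 and 4). Endothelial markers (6 of 9 lower in WT and 7 of 9 in KO, medians -1.15 and -1.10) and smooth muscle markers (4 of 9 lower in each, medians -0.61 and -0.43) went the same way as the pathway's medians, and their part in the pathway values was not tested. None of the 29 passed between genotypes, in control or in denervated muscle, or for the difference in response. In simulated data a log2 shift of 1 was called for 54% of shifted genes between denervated muscles. For the difference in response it was called for 24%. That none passed therefore does not show equal responses. With normexp background correction 9 passed in each genotype and the medians were 0.03 and -0.06, against 0.08 and 0.06 over all genes, so the median's direction in WT depends on the background correction.

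The source of cyclic GMP that runs parallel to the peptide receptors, the soluble cyclases and the nitric oxide synthases that activate them, was lower after denervation. Of 5 measured genes of other guanylyl cyclases and nitric oxide synthases 4 fell in each genotype: Nos1, Nos3 and the paired subunits of the soluble cyclase, Gucy1a1 and Gucy1b1, the latter 2 named after their values were seen. Neither subunit was called with normexp correction, and the KO call of Gucy1a1 was also lost with slide as a block and without KO control replicates 2 or 3 or KO denervated replicates 1 or 3. The fifth, Gucy2c, a receptor cyclase of the cell membrane, differed by -0.62 ± 0.35 in WT and -0.79 ± 0.35 in KO and did not pass (limma, adjusted p = 0.18 and 0.082). Nos1, the synthase of muscle fibres, had levels of 3.91 to 3.97 in WT control and 0.50 to 2.05 in WT denervated muscle, and 3.51 to 4.18 and 0.38 to 1.16 in KO. It fell by 2.53 ± 0.36 in WT (limma, adjusted p = 2.7e-04) and fell by 3.14 ± 0.36 in KO (adjusted p = 4.4e-05). Nos3, the synthase of endothelium, fell by 1.13 ± 0.19 in WT (limma, adjusted p = 8.1e-04) and fell by 0.94 ± 0.19 in KO (adjusted p = 0.0019). The endothelial markers given above fell in the same comparisons, and their part in the Nos3 values was not tested.

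Downstream, among kinases and their substrates, 2 of 5 measured genes fell in each genotype. Prkg1, protein kinase G itself, had levels of 0.57 to 0.68 in control and -1.18 to -0.71 in denervated muscle of WT mice, and 0.22 to 0.58 against -1.35 to -1.19 in KO mice. It fell by 1.50 ± 0.15 in WT (limma, adjusted p = 2.7e-05) and fell by 1.69 ± 0.15 in KO (adjusted p = 9.6e-06). Mrvi1, also called Irag1, a substrate of the kinase at the calcium store, fell by 1.04 ± 0.17 and fell by 0.88 ± 0.17 (limma, adjusted p = 6.0e-04 and 0.0013). Ppp1r12a, the myosin phosphatase subunit that the kinase acts on, rose by 1.54 ± 0.23 and 1.83 ± 0.23 (limma, adjusted p = 4.4e-04 and 1.0e-04). Rgs2 and Vasp, named here after their values were seen, rose in WT by 0.93 ± 0.26 and 0.69 ± 0.24 (limma, adjusted p = 0.014 and 0.041) and differed in KO by 0.22 and 0.19, which did not pass. The WT call of Rgs2 was lost with slide as a block, with normexp correction and without WT denervated replicate 2. That of Vasp was lost with quantile normalization, without a filter, without any 1 WT array and without KO control replicates 2 or 3. The difference between genotypes in these responses did not pass either.

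Among 8 measured phosphodiesterases, the enzymes that degrade cyclic nucleotides, 2 rose and none fell in each genotype. Of all genes, 19.2% rose in WT and 23.4% in KO, so 2 of 8 is near that share and nothing is read from the count. Pde1c, the calcium-activated enzyme, was not well above background in any control muscle and was so on all denervated arrays. It was at least 2.11-fold higher after denervation in WT (limma, adjusted p = 1.4e-04) and at least 3.21-fold higher in KO (adjusted p = 5.0e-05), where 1 control array was missing for this probe. Its call ended with normexp correction in WT and with the deposited processed values in KO. The other was Pde10a, named after its values were seen, at 0.76 ± 0.26 in WT (limma, adjusted p = 0.041) and at least 1.56-fold higher in KO (adjusted p = 0.028). It was well above background on 2 of 3 WT control arrays. Both calls ended with normexp correction and with slide as a block. The WT call also ended without a filter, without WT denervated replicates 1 or 2 or any 1 WT control array, and without KO denervated or KO control replicate 3. The KO call also ended without KO denervated replicates 1 or 3 or KO control replicates 2 or 3. Pde5a, the cyclic GMP enzyme of smooth muscle, was not well above background on any array.

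Of 4 measured channels and exporters 3 fell in each genotype. Abcc4, an exporter of cyclic nucleotides, fell by 1.01 ± 0.15 in WT (limma, adjusted p = 3.1e-04) and fell by 1.14 ± 0.15 in KO (adjusted p = 1.1e-04). For its relative Abcc5, the brightest of 3 probes fell by 1.14 ± 0.16 in WT (limma, adjusted p = 2.2e-04) and fell by 1.16 ± 0.16 in KO (adjusted p = 1.4e-04). Another Abcc5 probe went up, by 1.22 and 1.78, and the mean over probes was -0.31 and -0.20 and did not pass, so the gene's direction is uncertain. The third was the channel subunit Cngb1, named after its values were seen, at -0.80 ± 0.18 in WT and -0.57 ± 0.18 in KO (limma, adjusted p = 0.0055 and 0.025). Its difference turned positive in both genotypes with normexp correction, and both calls were lost with slide as a block. The KO call of Cngb1 was also lost without KO denervated replicate 1 or KO control replicates 2 or 3. None of the 3 inhibitory G protein genes to which Npr3 couples passed in either genotype. Of 4 measured genes that process or degrade the peptides, 1 fell in WT, the convertase Pcsk6 at -0.86 ± 0.28 (limma, adjusted p = 0.030), and 2 in KO, Pcsk6 at -1.26 ± 0.28 (adjusted p = 0.0033) and the protease Mme at -1.48 ± 0.49 (adjusted p = 0.029), both named after their values were seen. Mme was well above background on only 1 of 3 KO denervated arrays, so the size of its KO difference is uncertain. The Mme call was lost with normexp correction and without KO control replicates 1 or 3 or KO denervated replicates 1 or 3. The WT call of Pcsk6 was lost without a filter and on leaving out WT denervated replicates 1 or 2 or WT control replicate 3.

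**Figure D4:**
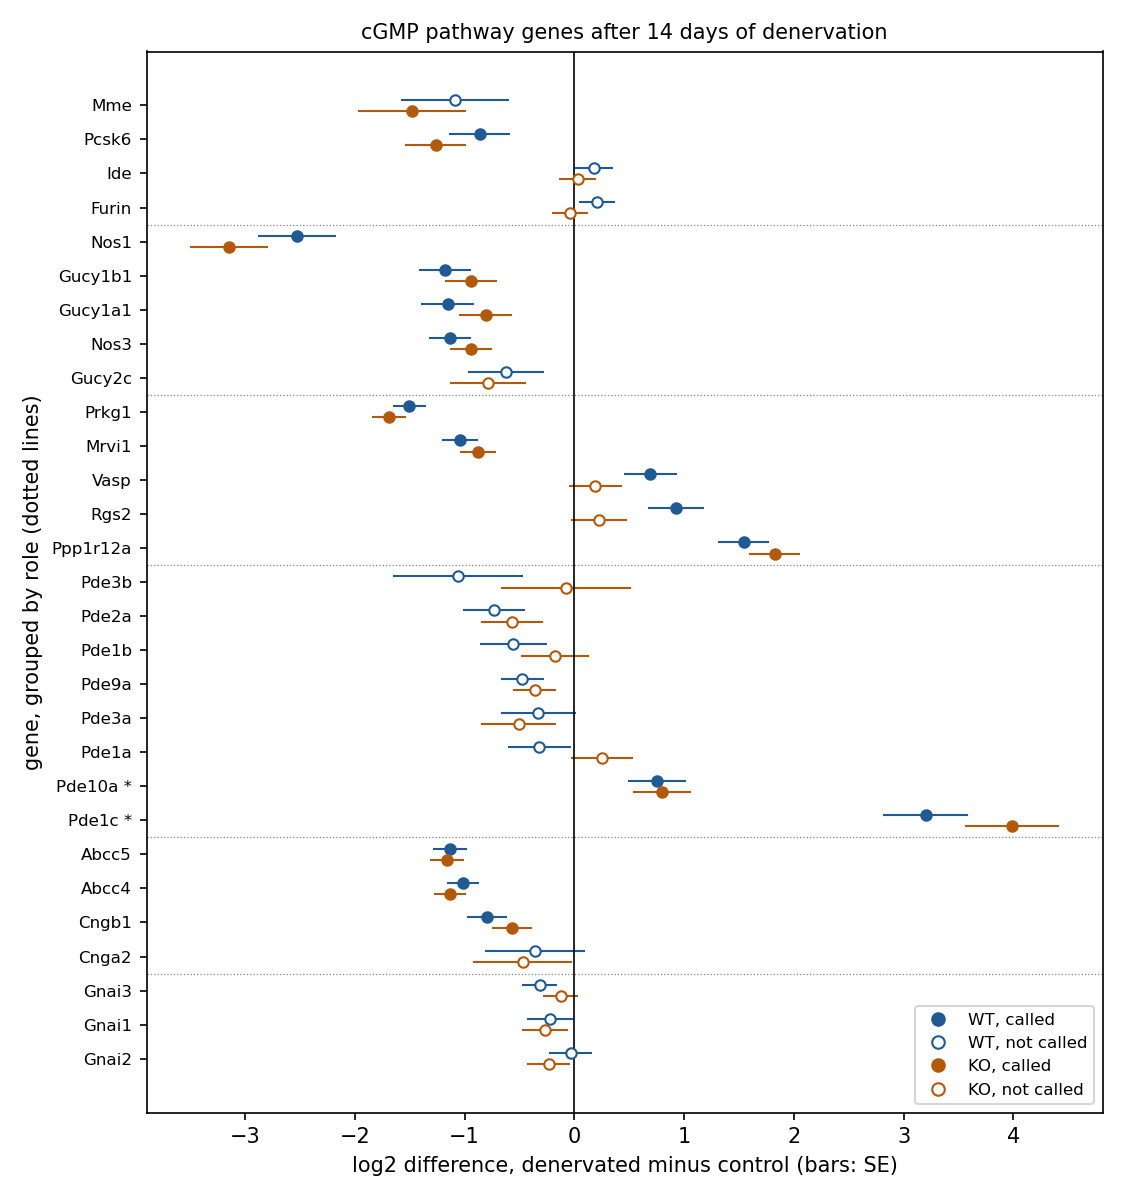
Log2 difference between denervated and control muscle (bars are SE) for the 29 measured genes of the cyclic GMP pathway, in WT (blue) and KO (orange), grouped by role. Filled points passed limma's adjusted p threshold of 0.05. An asterisk marks Pde1c and Pde10a, not well above background in at least 1 control group, whose plotted difference is not a size. More filled points lie left of 0 (10 in WT, 11 in KO) than right of it (5 and 3).

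Genes listed as possible regulators of osteocrin were read next. This list too was chosen with earlier results of these data known, so its counts and p-values are a description. Akt restrains Foxo1, a repressor of Ostn, and Ppargc1a goes with osteocrin's rise in exercise. On the brightest probe of each, 4 of 7 measured regulators passed as higher in each genotype, beside 19.2% of all genes in WT and 23.4% in KO, and 1 as lower, beside 20.0% and 23.5%. Among the 4, Akt1 has no settled direction over its probes, nor has Akt2 in KO, as given below. None of the 7 passed between genotypes or for the difference in response. Foxo1 had levels of 1.96 to 2.07 in control and 2.97 to 3.34 in denervated muscle of WT mice, and 1.97 to 2.22 against 3.39 to 3.64 in KO mice. It rose by 1.13 ± 0.14 in WT (limma, adjusted p = 1.1e-04) and by 1.39 ± 0.14 in KO (adjusted p = 1.8e-05). Ppargc1a, the coactivator of oxidative metabolism, had levels of 2.30 to 3.08, 0.75 to 1.09, 2.24 to 2.71 and 0.72 to 1.62 in the same order. It fell by 1.76 ± 0.26 in WT (limma, adjusted p = 3.4e-04) and fell by 1.44 ± 0.26 in KO (adjusted p = 9.7e-04). Ostn and Ppargc1a were thus low in the denervated arrays, in which Foxo1 was high, a gap between conditions that many genes share. The part of the listed regulators in the Ostn values was not tested.

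Mef2a, a muscle transcription factor, rose by 1.32 ± 0.13 in WT (limma, adjusted p = 4.3e-05) and by 1.46 ± 0.15 in KO (adjusted p = 3.5e-05), where 1 denervated array was missing for its probe. Each of its 3 kept probes was higher in KO, by 1.28 to 1.46. The mean over probes in KO, 0.88, did not pass (limma, adjusted p = 0.074). On the array with the missing value that mean held the dimmer probes alone, which lowered it, so 0.88 is not a size of the Mef2a difference. Akt2 rose 2.15-fold and 1.63-fold (limma, adjusted p = 4.1e-04 and 0.0048) on its brighter probe. Its other kept probe gave 0.82 in WT and -0.07 in KO, so no direction is given for Akt2 as a gene in KO. The KO call of Akt2 ended with the mean over probes and with normexp correction. Akt1 rose by 0.56 ± 0.15 and 0.67 ± 0.15 (limma, adjusted p = 0.011 and 0.0030) on its brighter probe. Its WT call ended with normexp correction, and its other probe gave -0.11 and -0.74, so no direction is given for Akt1 as a gene. Mef2c differed by 0.49 ± 0.40 and -0.01 ± 0.40 and Mef2d by -0.06 ± 0.21 and -0.21 ± 0.21, none of which passed. Foxo3 did not enter the fit.

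The genes most like Ostn over the 12 arrays, by Pearson correlation among 14999 genes with a value on every array, were Apobec2 (r = 0.993), Maob (0.992), Hsbp1l1 (0.991), Mlf1 (0.991) and Sox6os (0.991). All 5 were lower after denervation in both genotypes, with differences of -3.62 to -1.79 in WT and -3.57 to -1.53 in KO, smaller than those of Ostn. With 438 genes above r = 0.95, the likeness rests on the gap between control and denervated arrays that many genes share. Over deviations from the group means, which remove that gap, the 5 most like Ostn were Prss12 (0.941), Cenpq (0.929), Tdp2 (0.906), NAP103155-1 (0.904) and Enpep (0.903), none of them on the first list.

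For Npr3 no gene reached r = 0.95 over the 12 arrays. The 3 most like it were Hspa1a, a heat shock chaperone (0.931), Fam234a (0.927) and Sh3bp4 (0.926). All 3 were higher after denervation in WT (1.24, 0.65 and 0.92) and lower in KO (-0.71, -0.13 and -0.52), as Npr3 was, with smaller differences. Over deviations from the group means the 3 most like Npr3 were Nos1 (0.960), Smim8 (0.955) and Slc25a11 (0.952). Nos1 thus followed Npr3 among arrays of the same group. Between groups it went the other way after denervation in WT (-2.53 against 2.63 for Npr3). It went the same way after denervation in KO (-3.14 against -1.26). Between denervated muscles, KO minus WT was -0.77 for Nos1, which did not pass, against -3.91 for Npr3. For Npr2 the 3 most like genes were Ptov1, Oxa1l and NAP057951-1 (all 0.963) over arrays and Cap1 (0.969), Zfp316 (0.943) and Atp6v0c (0.928) over deviations. These correlations share the arrays' scaling and labelling and are given without a test.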

How the data were processed

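RNA of 12 muscles was labelled with Cy3 and hybridised to 1-colour Agilent arrays. The authors deposited each array's scanner output, whose processed intensity is background-corrected by Agilent Feature Extraction, version 10.7.3.1 per the file headers and 10.5.1.1 per the submitters' processing notes. They also deposited a table of processed intensities, used after taking log2 as an alternative. Probe coordinates are those of mm8, per the file headers, and with no annotation of that build exon and UTR positions are not given. Gene symbols were updated through RefSeq accessions.

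Control spots were left out and spots flagged as outliers set to missing. The log2 processed intensity was averaged over a probe's spots, and the array's 75th percentile over non-control spots (an intensity of 226 to 383) was subtracted. Probes with signal well above background on every array of at least 1 group were kept (22524), and the brightest stood for its gene (15226 genes, 226 with a missing value). limma 3.58.1 in R 4.3.3 fitted 4 group means to all 12 arrays, with two-sided tests and Benjamini-Hochberg adjustment over all genes, after checks on simulated data. The number of arrays, 3 per group, limits the precision.

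Members and lists were chosen with earlier results of these data known. Named genes were the 7 members, up to 8 called pathway genes per comparison with the smallest adjusted p, all regulators, and the 5 (Ostn) or 3 genes most alike. Irag1 of the list is Mrvi1 in the table used. Across 5 comparisons, alternatives changed the background correction, scaling, filter, probe, slide, replicate block and arrays included. Deviations of same-numbered WT control and denervated arrays correlated at r = 0.304, 0.109 and 0.233. In KO the values were 0.0897, 0.0135 and 0.175. Between denervated WT and denervated KO arrays, which cannot be pairs, same-numbered values were 0.202, 0.299 and 0.00576. The 0.304, 0.175, 0.202 and 0.299 were each between arrays of the same slide. These values therefore cannot show whether the numbers of the titles pair the arrays. The main fit used no pairing, and the replicate block used the numbers as an alternative. The labels state no pairing.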

Additional observations from a re-analysis of the deposited data

Results flagged for a closer look

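The Npr3 response to denervation went opposite ways in the 2 genotypes: all 3 WT denervated arrays lay above all WT controls and all 3 KO denervated arrays below all KO controls, and the response in KO minus that in WT was -3.89 ± 0.37 (log2, SE). No p-value is given for this difference, because Npr3 was chosen with these levels known.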

How the results depend on the processing

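Npr3 after denervation stayed higher in WT and lower in KO, and Ostn stayed lower in both, under every alternative run. With normexp background correction the Npr3 differences were 2.19 in WT, -0.59 in KO, -2.82 between denervated muscles and -2.78 for the difference in response, and those of Ostn -3.57 and -3.45; called genes numbered 2640 in WT, 3670 in KO, 0 between controls, 46 between denervated muscles and 0 for the difference in response, and called pathway genes 9 and 9. Genes called between controls (1 in the analysis as reported) numbered 5 with quantile normalization, 5 with the array median, 5 with the deposited processed values, 0 without a filter, 2 with probes well above background on all 12 arrays, 4 with the mean over probes and 0 with slide as a block. Between denervated muscles 213 genes were called without a filter. For the difference in response 5 were called without a filter, 12 with probes well above background on all 12 arrays and 1 with slide as a block. With the replicate block the count between controls was 0 and that of WT denervation 5974, the Npr3 and Ostn differences were the same to 2 decimals, and 1 more pathway gene was called in each genotype. Leaving out 1 array at a time gave 0 to 4 genes between controls, 158 to 346 between denervated muscles, 2 to 51 for the difference in response, and 0 to 1 pathway genes between denervated muscles. The count between denervated muscles moved by over 1.5 times without any 1 WT denervated array or without KO denervated replicates 2 or 3, and that for the difference in response without any 1 array but WT denervated replicate 1. Over the same omissions Npr3 ranged from 2.42 to 2.99 in WT, -1.42 to -1.16 in KO, -4.26 to -3.69 between denervated muscles and -4.25 to -3.68 for the difference in response; without WT denervated replicate 3 the 3 values that use it were 2.99, -4.26 and -4.25. Nppb is dim, and its direction in WT turned over the same omissions (-0.34 to 0.51), as its KO direction did with normexp correction (0.04). The causes were not tested. Npr1, Nppa and Nppc were too dim for any difference to be measured.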
